A study of Mus musculus with 32 samples.

Results

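The replication-dependent histone genes lie in clusters named Hist1 to Hist4 in the mouse genome, and every gene whose GENCODE M21 symbol starts with Hist1h, Hist2h, Hist3h or Hist4h was taken as a member. The annotation holds 70 such genes, of which 62 were among the 25058 genes counted in all assays, and 8 were not analysed here. Of the 62, 5 belonged to the linker histone H1 family, 16 to H2A, 18 to H2B, 10 to H3 and 13 to H4, and 3 were pseudogenes. The Hist1 cluster on chromosome 13 held 54, the Hist2 cluster on chromosome 3 held 5, the Hist3 cluster on chromosome 11 held 2 and the Hist4 cluster on chromosome 6 held 1.

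The mice were wild-type C57BL/6J females 6 to 7 months old. The cisplatin group received 10 mg/kg by intraperitoneal injection and the control group received the same volume of saline. The organs were taken 4 h later according to the protocol, although the sample labels state 2 h. Kidney, liver, lung and spleen were each sampled with 2 Damage-seq and 2 XR-seq libraries after cisplatin and with 2 cisplatin and 2 control RNA-seq libraries, 32 libraries in all. Damage-seq reads mark platinum adducts still present in the DNA, XR-seq reads are the oligomers excised around an adduct by nucleotide excision repair, and RNA-seq reads came from poly-A selected RNA. A note with the data states that the arm labels of the lung and spleen RNA-seq were corrected after deposition, and the corrected labels were used.

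Replication-dependent histone genes supply histones while DNA is copied in S phase. Their mRNAs normally end in a short stem-loop bound by the stem-loop binding protein and carry no poly-A tail, so poly-A selection recovers them poorly, although some of these genes also make polyadenylated transcripts. In transcription-coupled repair, RNA polymerase II stalled at an adduct recruits the excision machinery, which removes damage from the transcribed strand (TS) faster than from the non-transcribed strand (NTS).

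The form of the histone 3′ stem-loop was searched for, a stem of 6 base pairs with at most 1 mismatch and a loop of 4 bases. Such a hairpin was found close to the coding end of 58 of the 59 protein-coding members (98.3%), against 148 of 21938 protein-coding genes (0.675%) as a whole. The protein-coding member without it was Hist2h2be, an H2B gene. A stem without a mismatch was found in 57 of the 59 members and in 75 of the 21938 genes. The hairpins are shown because their position relative to the annotated gene end separates the members into classes used below. They were read 5′ to 3′ on the coding strand of GRCm38 (mm10), with the loop in capitals.
Hist1h1c, Hist1h1a, Hist1h2bc and 30 other members: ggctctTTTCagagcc
Hist1h3c and 8 other members: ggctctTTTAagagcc
Hist1h4h, Hist4h4 and 6 other members: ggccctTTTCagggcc
Hist1h4i and Hist2h4: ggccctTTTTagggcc
The remaining hairpins were variants found in 1 or 2 members each. The form with the ggccct stem was found only in H4 genes. In 24 members the annotated gene ran on for more than 100 bases past the hairpin, in 34 it ended at or near the hairpin, and in 4 no hairpin was found.

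Upstream sequence was available for 53 members as 54 promoters of 300 bases (RefSeq, GRCm38.p6, 250 bases before and 50 after the start). The letters CCAAT, on either strand, occurred in 83.3% of them against 37.4% of all 32851 promoters in the table. TATAAA occurred in 59.3% against 13.6%, and the octamer ATTTGCAT in 20.4% against 1.74%. By family, CCAAT was in all promoters of the H1, H2A, H2B and H3 members but in 25% of the H4 promoters, and the octamer was found only in H2A (38.5%) and H2B (37.5%) promoters. The promoters of 2 H1 genes that come up repeatedly below and of Hist1h2bb, an H2B gene, are shown with these motifs in capitals.
Hist1h1a, chr13:23763418-23763717, plus strand: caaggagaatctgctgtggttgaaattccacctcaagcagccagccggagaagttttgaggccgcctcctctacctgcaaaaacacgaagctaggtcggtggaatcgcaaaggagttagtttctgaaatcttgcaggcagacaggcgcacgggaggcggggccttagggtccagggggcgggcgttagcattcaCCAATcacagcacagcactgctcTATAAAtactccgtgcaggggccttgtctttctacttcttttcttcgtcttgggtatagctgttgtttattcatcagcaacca
Hist1h1c, chr13:23738557-23738856, plus strand: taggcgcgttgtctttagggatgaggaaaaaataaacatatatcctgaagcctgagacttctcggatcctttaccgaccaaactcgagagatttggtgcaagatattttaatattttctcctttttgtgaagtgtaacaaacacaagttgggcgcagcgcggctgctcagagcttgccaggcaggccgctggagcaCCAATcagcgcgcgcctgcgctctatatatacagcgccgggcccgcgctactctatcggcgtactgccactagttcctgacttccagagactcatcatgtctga
Hist1h2bb, chr13:23746484-23746783, plus strand: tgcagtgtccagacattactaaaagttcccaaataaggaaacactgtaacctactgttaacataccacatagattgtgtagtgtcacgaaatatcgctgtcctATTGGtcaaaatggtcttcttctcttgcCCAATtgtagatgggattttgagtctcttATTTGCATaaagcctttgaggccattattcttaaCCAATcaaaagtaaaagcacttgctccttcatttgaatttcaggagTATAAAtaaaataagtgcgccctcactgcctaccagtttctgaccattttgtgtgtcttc

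The libraries held between 15619474 and 162270280 reads on genes in RNA-seq. Those of XR-seq held 10658675 to 59779770 and those of Damage-seq 1571167 to 6441367. Both control libraries of lung, and likewise both of spleen, agreed almost to within sampling noise (an index of 2.75 and 2.98, the chi-square of the counts over its degrees of freedom, against 39.3 to 349 for the other RNA-seq pairs), so each pair was counted as 1 sample and its spread taken from the other groups. Organ markers lay in the labelled organ. Cdkn1a, the p53 target encoding p21, rose from 15.1 and 30.1 to 431 and 456 CPM (counts divided by the library's reads on genes and scaled to 1000000) in kidney, and the 2 cisplatin libraries lay above the 2 controls in each organ. The 5 pancreas markers summed to 1099 and 1446 CPM in the 2 spleen cisplatin libraries and to 0.517 and 0.519 CPM in the spleen controls. The summed B cell markers were 319.7 and 328.1 CPM in the lung controls and 71.9 and 98.5 CPM after cisplatin, and the summed T cell markers were 128 and 129 CPM against 31.99 and 38.1 CPM. The part of these markers in the values of the histone genes was not tested.

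Many members are near-identical copies of one another, which bears on each value. The median share of 26-base words of a member (the length of the excised oligomer) that occur once in the genome was 38.6%, and 11 members reached 80% or more. The H2A genes had the lowest median, 16.9%, and all 16 overlapped another annotated gene. Since reads with low mapping quality were removed before counting, values of members with little unique sequence are uncertain. In XR-seq, 10 of the 19 members with under 20% of unique words had 0 TS reads over the 8 libraries, whereas all 11 members with at least 80% had 20 or more. The RNA-seq libraries are not stated to keep the strand, so that overlapping genes on opposite strands cannot be told apart there.

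RNA-seq levels of the members were concentrated on few genes. Hist1h1c, a linker histone H1 gene, took 49.2% of all member reads and Hist1h2bc, an H2B gene, took 34.1%. Together they made up between 59.8% and 93.1% of the member reads of a library. Per length, the 5 highest members by the mean of the controls of the 4 organs were Hist1h2bc at 59.7 RPKM (reads on the exons per kilobase, scaled to 1000000 reads on genes of the library), Hist1h1c at 56.5, Hist1h4i at 5.20, Hist2h2be at 4.25 and Hist1h4h at 3.75 RPKM. The median member stood at 0.134 RPKM and the median of all genes at 1.38 RPKM. Of the 24 members annotated past the hairpin, 6 reached 1 RPKM, against 1 of the 34 that ended at the hairpin (Hist1h4h). The annotated ends themselves rest on observed transcripts, so this class is not independent of polyadenylated RNA. The classes also differed in unique sequence, with a median share of unique 26-base words of 68.0% past the hairpin and 25.6% at it. The part of this difference in the RPKM values was not tested.

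Hist1h1c (chr13:23738808-23740367, plus strand) read 112 and 136 RPKM in the kidney controls and 130 and 150 RPKM after cisplatin. In liver it read 29.8 and 25.6 RPKM against 35.5 and 42.9 RPKM, in lung 48.5 and 46.1 RPKM against 66.9 and 86.0 RPKM, and in spleen 29.1 and 26.7 RPKM against 48.5 and 42.1 RPKM. The cisplatin libraries lay above the controls in liver, lung and spleen and overlapped them in kidney. None of these differences passed the test against a log2 fold change of 0.4 (edgeR quasi-likelihood with Benjamini-Hochberg adjustment): the log2 fold change was 0.23 ± 0.28 for kidney (SE, adjusted p = 0.927), 0.54 ± 0.28 for liver (adjusted p = 0.62), 0.70 ± 0.36 for lung (adjusted p = 0.944) and 0.68 ± 0.36 for spleen (adjusted p = 1). In these bulk samples a change in the number of cells of a type and a change in RNA per cell cannot be told apart.

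Hist1h2bc (chr13:23684199-23692908, plus strand) is annotated over 8710 bp, far past its hairpin. It read 108.5 and 86.9 RPKM in the kidney controls and 116.7 and 117.2 RPKM after cisplatin. In liver it read 86.7 and 60.5 RPKM against 78.9 and 87.5 RPKM, in lung 56.1 and 53.2 RPKM against 61.3 and 80.5 RPKM, and in spleen 13.2 and 14.0 RPKM against 15.6 and 15.4 RPKM. The groups did not overlap in kidney, lung and spleen, but the log2 fold change of 0.33 ± 0.25 in kidney had an adjusted p of 0.82 (edgeR), and in the other organs the adjusted p was 0.938 or above.

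The H4 genes Hist1h4i (chr13:22040636-22041362, minus strand) and Hist1h4h (chr13:23531050-23531519, plus strand) were higher in both kidney cisplatin libraries than in both controls. Hist1h4i read 8.19 and 5.25 RPKM in the kidney controls and 12.95 and 9.06 RPKM after cisplatin. Hist1h4h read 8.04 and 5.68 RPKM against 14.6 and 8.26 RPKM. The log2 fold changes were 0.78 ± 0.38 (adjusted p = 0.492, edgeR) and 0.79 ± 0.46 (adjusted p = 0.594). Hist2h2be (chr3:96221119-96223738, plus strand), which has no hairpin, read 4.98 and 5.73 RPKM in the kidney controls and 5.52 and 4.99 RPKM after cisplatin, overlapping groups.

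**Figure D1:**
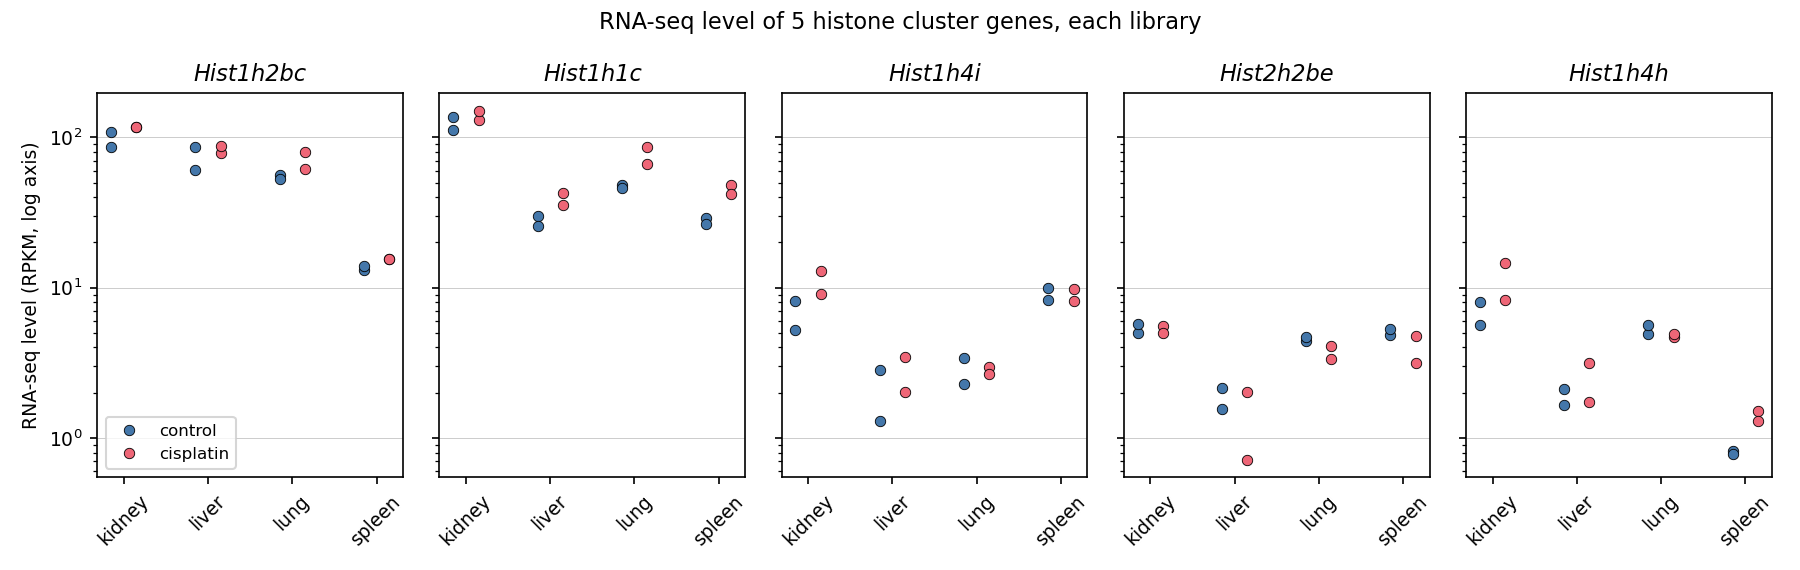
RNA-seq level in RPKM (log axis) of the 5 histone cluster genes with the highest control mean, 1 point per library, controls in blue and cisplatin in red, by organ. Hist1h1c reads 29.1 and 26.7 RPKM in the spleen controls and 48.5 and 42.1 RPKM after cisplatin, while Hist2h2be overlaps between the arms in kidney at 4.98 to 5.73 RPKM.

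Of the 62 members, 40 had enough RNA-seq reads to be tested, and 0 were called higher or lower after cisplatin in any organ. Among all 19100 genes tested, kidney had 1.71% called higher and 1.41% lower, liver 0.408% and 2.30%, lung 0% and 0.366%, and spleen 0.120% and 0.0157%. At an unadjusted p under 0.05, edgeR gave 4 members in kidney and 0 in each other organ. DESeq2 called 0 in each organ as well, with 2 members at an unadjusted p under 0.05 in kidney and 0 elsewhere. The median standard error of a member's log2 fold change was 1.00 for spleen, 1.09 for lung, 1.13 for kidney and 1.29 for liver, so that a change of about that size on the log2 scale in a typical member lay within its error. The median log2 fold change over the 40 members was 0.61 for kidney (26 above 0), 0.43 for liver (26 above 0), 0.09 for lung (22 above 0) and 0.01 for spleen (20 above 0), beside medians over all genes of 0.00, 0.00, 0.01 and -0.03.

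The 4 kidney members below an unadjusted p of 0.05 were picked out by that p after the values were seen, and all had few reads. Hist2h4, an H4 gene (chr3:96261682-96263311, minus strand), had 8 and 4 reads in the controls and 38 and 28 after cisplatin, a log2 fold change of 2.83 (adjusted p = 0.272, edgeR). Hist4h4, also an H4 gene (chr6:136801553-136804415, minus strand), had 8 and 4 reads against 50 and 16, a log2 fold change of 3.05 (adjusted p = 0.296). Both cisplatin libraries lay above both controls for these genes, and both were called when a block on the replicate number was added (log2 fold change 2.73 and 2.65), although same-numbered libraries did not deviate together in every organ. Hist1h1t, the testis linker histone, had 0 reads in both kidney controls and 9 and 14 after cisplatin (adjusted p = 0.146), and Hist1h3e, an H3 gene, had 0 reads in both controls and 2 and 4 after cisplatin (adjusted p = 0.297). Hist1h1t passed the filter on low counts through the kidney cisplatin libraries only. Its place among these 4, and its part in the kidney median over members, are thus not independent of that filter.

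By family, none of the tested members of H1, H2A, H2B, H3 or H4 passed the test in any organ. The medians of H1, H2A, H2B, H3 and H4 were 0.23, 0.00, 0.50, 0.00 and 1.14 in kidney, and 1.42, 0.44, 0.37, -0.50 and 0.41 in liver. For lung they were 0.70, -1.26, 0.18, -0.20 and 0.39, and for spleen 0.68, -0.01, -0.39, 0.27 and -0.12. In kidney 9 of 11 H4 genes were above 0, but 5 of 11 were in spleen, and the 5 H1 genes were all above 0 in liver and lung and 4 of 5 in kidney and spleen. The response was not shown to differ between organs for any member: the test of the organ-by-arm interaction in edgeR called 0 members, where 0.209% of all genes passed, with 0 at an unadjusted p under 0.05 and 0 by DESeq2. The members with the lowest adjusted p were Hist1h2be (an H2B gene, 0.733), Hist1h4c (an H4 gene, 0.744) and Hist4h4 (0.773).

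Hist1h2be read 2.34 and 2.74 RPKM in the kidney controls and 4.95 and 4.46 RPKM after cisplatin, and 0.709 and 0.705 RPKM in the spleen controls against 0.440 and 0.423 RPKM. Neither organ's groups overlapped, and the direction was opposite. The log2 fold change was 0.94 ± 0.39 in kidney (adjusted p = 0.383, edgeR) and -0.75 ± 0.47 in spleen (adjusted p = 1). The annotated gene (chr13:23583670-23621124, minus strand, 37455 bp) overlaps part of the H1 gene Hist1h1e on the same strand, so reads of the latter could fall on it.

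**Figure D2:**
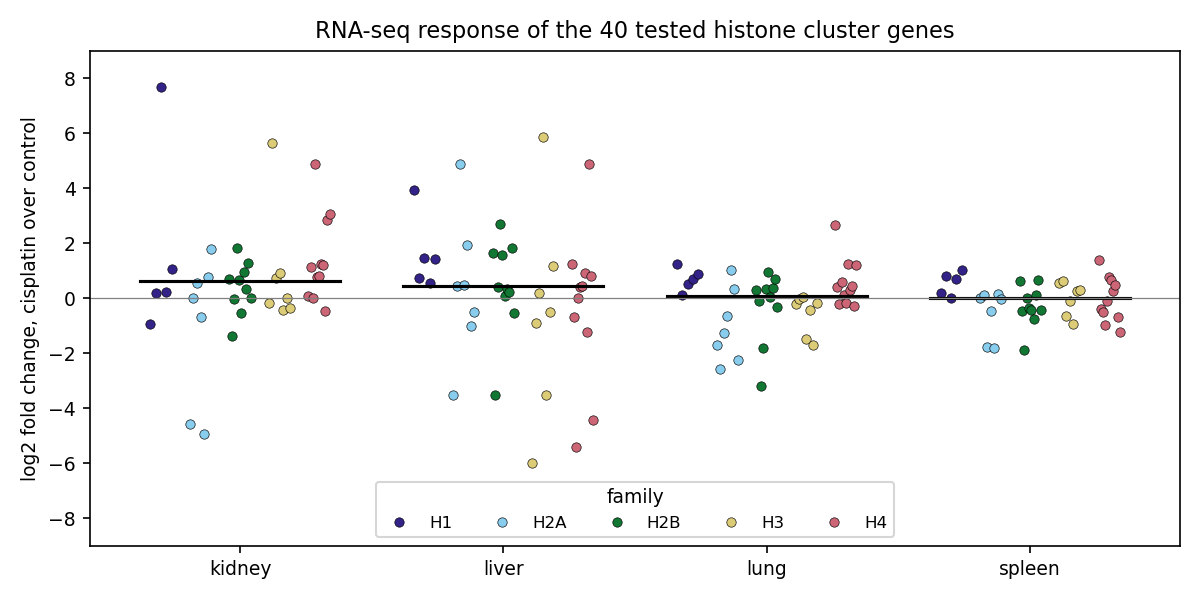
Log2 fold change of cisplatin over control of the 40 tested histone cluster genes, 1 point per gene coloured by family, by organ, with the median as a black bar. The medians stand at 0.61 for kidney, 0.43 for liver, 0.09 for lung and 0.01 for spleen, and 0 genes passed the test; the points farthest from 0 are genes with few reads.

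Summed over all 62 members, the RNA-seq level in kidney was 341 and 361 CPM in the controls and 413 and 428 CPM after cisplatin. In liver the sum was 161.7 and 119 CPM against 161.8 and 180.4 CPM, in lung 175 and 167 CPM against 205 and 262 CPM, and in spleen 97.0 and 96.8 CPM against 126 and 121 CPM. In each organ the cisplatin libraries lay above the controls, in liver by less than 1 CPM at the closest pair. The mean ratio was 1.20-fold for kidney (log2 0.26 ± 0.07, SD), 1.22-fold for liver (0.28 ± 0.33), 1.38-fold for lung (0.47 ± 0.25) and 1.27-fold for spleen (0.35 ± 0.04). With the controls pooled, the lung and spleen SDs hold the spread of the 2 cisplatin libraries only and are not comparable with those of kidney and liver. The sums follow the abundant members. Without Hist1h1c, the log2 ratio in spleen was -0.04, and in kidney it was 0.36. The 34 members ending at the hairpin summed to 5.07 and 4.00 CPM in the kidney controls and 9.16 and 5.27 CPM after cisplatin. In liver they summed to 1.88 and 1.15 CPM against 1.98 and 1.99 CPM. Their sums were 4.12 and 4.73 CPM against 4.11 and 3.72 CPM in lung and 5.45 and 5.81 CPM against 4.65 and 5.90 CPM in spleen.

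**Figure D3:**
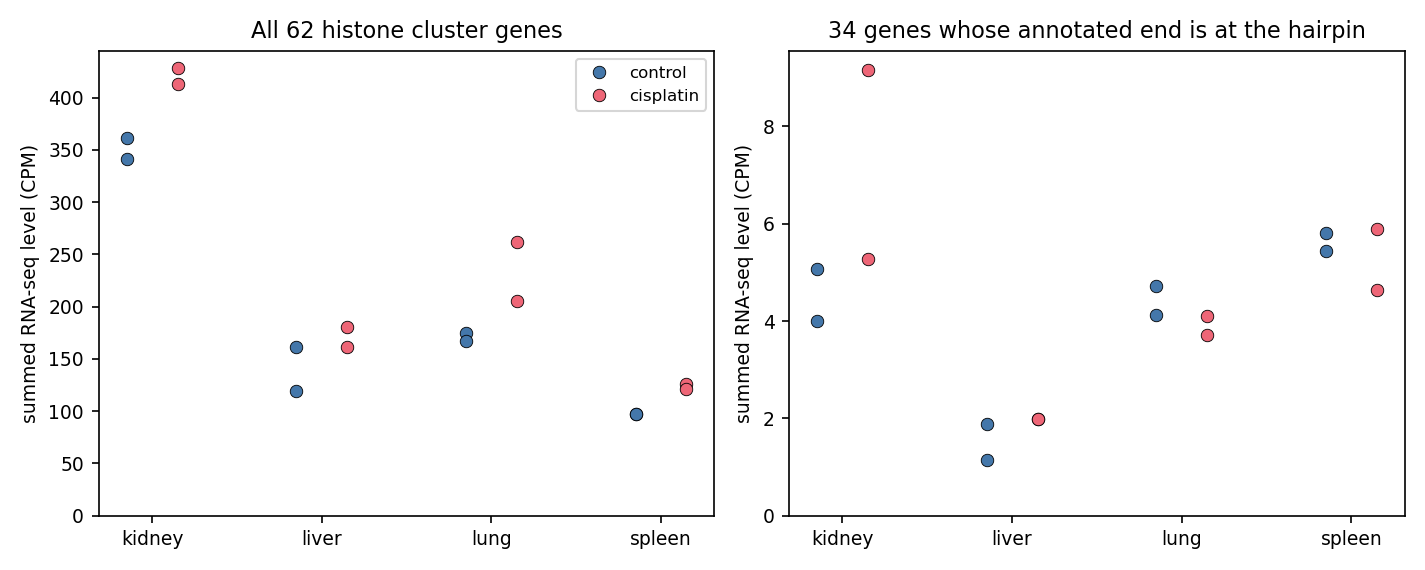
Summed RNA-seq level in CPM of all 62 histone cluster genes (left) and of the 34 whose annotation ends at the hairpin (right), 1 point per library, controls in blue and cisplatin in red, by organ. On the left the kidney controls read 341 and 361 CPM and the cisplatin libraries 413 and 428 CPM; on the right spleen, at 4.65 to 5.90 CPM, is close to kidney and lung rather than the lowest organ.

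For the levels without cisplatin, the members called higher or lower in an organ are given beside the shares of all genes. The median member stood at 0.134 RPKM and the median of all genes at 1.38 RPKM. The part of this lower level in the number of calls was not tested. Each organ's controls were compared with the mean of the other 3 organs on the log2 scale. In kidney 7 of 40 tested members were called higher and 1 lower, beside 19.6% and 15.7% of all genes. The kidney calls were Hist1h1c, Hist1h1d (both H1), Hist1h2bc, Hist1h2be, Hist1h2bk (all H2B), Hist1h4a and Hist1h4h (both H4), with Hist1h4m (H4) lower at 0 reads in both controls. Hist1h2bk, with 7 and 16 reads in the kidney controls, and Hist1h4a, with 4 and 8, passed the filter on low counts through kidney samples only. The calls of Hist1h2bk and Hist1h4a are thus not independent of that filter. Without kidney control 2, or with DESeq2, 4 were called higher, and Hist1h1d (adjusted p = 0.047) and Hist1h4a (0.0317) kept the call in 6 of 16 and 8 of 13 fits that left out a library. In spleen 5 were called higher and 3 lower, beside 24.1% and 17.1%. In liver 1 was called higher (Hist1h2bc) and 2 lower (Hist1h2be and Hist3h2ba, both H2B), beside 17.7% and 24.6%, and without liver control 2 the lower calls fell to 1. In lung edgeR called 0 either way, beside 18.3% and 5.85%, with 2 members at an unadjusted p under 0.05, and DESeq2 also called 0.

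Hist1h1c averaged 124 RPKM in the kidney controls, 27.7 in liver, 46.7 in lung and 27.5 in spleen, and kidney stood above the mean of the others by a log2 difference of 1.77 ± 0.24 (adjusted p = 0.000346, edgeR), while spleen stood below (-1.37 ± 0.35, adjusted p = 0.0146). Hist1h2bc averaged 97.7 RPKM for kidney, 73.6 for liver, 54.0 for lung and 13.8 for spleen, so that the libraries of kidney and of liver touched (86.9 and 86.7 RPKM) and all spleen libraries lay lowest. The test scales the libraries further by TMM, with factors of 0.54 and 0.63 for the liver controls and 1.02 to 1.33 for the others, and on that scale the liver mean of Hist1h2bc (124.9 RPKM) stood above that of kidney (90.4 RPKM). On that scale liver and spleen, near equal in RPKM for Hist1h1c, stood at 47.4 and 21.9 RPKM, and the liver mean of Hist1h4i (3.45 RPKM) lay above that of lung (2.16 RPKM), so the place of liver in the orders given here depends on the scaling. Hist1h2bc was called higher in kidney (1.21 ± 0.21, adjusted p = 0.00327) and liver (1.83 ± 0.21, adjusted p = 9.1e-05) and lower in spleen (-2.79 ± 0.34, adjusted p = 0.000102). Hist1h4h averaged 6.86 RPKM for kidney, 1.90 for liver, 5.45 for lung and 0.792 for spleen and was called higher in kidney (1.59 ± 0.40, adjusted p = 0.015) and lower in spleen (-2.76 ± 0.62, adjusted p = 0.0056). Hist1h4i averaged 9.44 RPKM in spleen, 6.72 in kidney, 2.58 in lung and 2.06 in liver, and its spleen difference of 1.15 ± 0.38 did not pass (adjusted p = 0.054). Hist2h2be averaged 5.35 RPKM in kidney, 5.17 in spleen and 4.61 in lung, with single libraries between 4.44 and 5.73 RPKM, and 1.86 RPKM in liver, with no organ called.

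The 5 members called higher in the spleen controls were Hist1h1b (an H1 gene, adjusted p = 0.00274, edgeR), Hist1h4n (an H4 gene, adjusted p = 0.009), Hist1h4m (an H4 gene, adjusted p = 0.026), Hist1h3c (an H3 gene, adjusted p = 0.034) and Hist1h2bj (an H2B gene, adjusted p = 0.045), and all 5 end at the hairpin, out of 18 tested members of that class. Hist1h2bj kept the call in 3 of 6 alternatives and in 9 of 16 fits that left out a library. Hist1h1b had 24 and 42 reads in the spleen controls, 2 and 2 in kidney, 0 and 0 in liver and 3 and 2 in lung. Hist1h4n had 12 and 31 reads in spleen, 0 in all 4 kidney and liver controls and 2 and 2 in lung. Hist1h2bj had 18 and 22 reads in spleen, 0 and 4 in kidney, 0 and 1 in liver and 2 and 7 in lung. Hist1h3c had 8 and 35 reads in spleen, 0 and 3 in kidney, none in liver and 4 and 6 in lung. The spleen controls lay above all other controls for these 4 genes, at 8 to 42 reads each. Hist1h4m, with 14 and 59 reads in spleen and 9 and 24 in lung, overlapped in reads between those organs. DESeq2 called 1 member higher in spleen in place of 5. Of the 18 tested members of the class, 6 passed the filter on low counts through spleen samples only, Hist1h1b, Hist1h3c and Hist1h4n among them, so that the count of calls is not independent of that filter. The share of reads covers the whole class of 34, tested or not. Members ending at the hairpin made up 5.62% and 6.00% of the member reads of the spleen controls, against 1.11% to 1.49% in kidney, 0.967% to 1.16% in liver and 2.36% to 2.83% in lung. By CPM the class summed to 5.45 and 5.81 in the spleen controls and to 5.07 and 4.00 in kidney. It summed to 1.88 and 1.15 CPM in liver and to 4.12 and 4.73 CPM in lung. The shares thus also follow the sum of all members, 97.0 and 96.8 CPM in spleen against 341 and 361 CPM in kidney.

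Of the 25 S phase genes listed beside the members, 24 were higher in the spleen controls and 0 lower, beside the 24.1% and 17.1% of all genes (median log2 difference 2.56). Among them were Mki67 (a marker of cycling cells, 4.29), Top2a (a DNA topoisomerase, 4.10), Ccna2 (cyclin A2, 3.82) and Mcm5 (a subunit of the replicative helicase, 3.25). In kidney 21 were lower and 0 higher, beside 15.7% and 19.6% of all genes. In liver 17 were lower and 1 higher, beside 24.6% and 17.7%, and in lung 1 lower and 2 higher, beside 5.85% and 18.3%. Their summed level was 2173 and 2176 CPM in the spleen controls, 661 CPM in both lung controls, 219 and 231 CPM in kidney and 156 and 167 CPM in liver. After cisplatin, Pcna, the sliding clamp of replication, passed the test in kidney (log2 1.15, adjusted p = 0.0288, edgeR) and Top2a in liver (log2 -1.55, adjusted p = 0.043), and no other gene of the list passed in edgeR. The Pcna call was lost in 8 of 16 fits that left out a library, namely any kidney library or a cisplatin library of lung or spleen. The liver count of genes called lower ranged from 0 to 5 (5 without liver cisplatin 1) and moved in 12 of 16 such fits, and it was 0 with liver fitted alone. In lung DESeq2 called 2 lower where edgeR called 0 (5 at an unadjusted p under 0.05). There 1 of the 25 was above 0, with a median of -0.49, beside the lower B and T cell markers given above.

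Of 16 factors of histone mRNA transcription, processing and decay, 7 were higher in the spleen controls and 0 lower, beside 24.1% and 17.1% of all genes, and DESeq2 called 4 higher. They included Slbp, the stem-loop binding protein (log2 1.69, adjusted p = 0.00057, edgeR), Casp8ap2, a histone locus body protein (1.59, adjusted p = 0.00227), and Zfp473, a processing factor bound to the U7 particle (2.67). In kidney 3 were lower, among them Slbp (-0.85), and 0 higher, beside 15.7% and 19.6% of all genes, and DESeq2 called 2 lower. In liver 2 were higher and 0 lower, beside 17.7% and 24.6%, and DESeq2 also called 2 higher. In lung 1 was lower and 0 higher, beside 5.85% and 18.3%, and DESeq2 also called 1 lower. By edgeR and by DESeq2, 0 of the 16 passed the test of cisplatin against control in any organ, with 1 below an unadjusted p of 0.05 in kidney and 1 in liver by edgeR. Slbp stood at 29.3 and 17.4 CPM in the kidney controls and 52.9 and 37.0 CPM after cisplatin (log2 1.02, adjusted p = 0.105). Of 11 replication-independent histone genes 0 passed in any organ by either tool, with 3, 2, 1 and 0 below an unadjusted p of 0.05 in kidney, liver, lung and spleen by edgeR. Of these H2afx, whose product is phosphorylated at DNA breaks, had a log2 fold change of 1.44 in kidney (adjusted p = 0.0878), and H3f3b, a histone H3.3 gene, 1.53 in kidney (adjusted p = 0.119) and 1.61 in liver (adjusted p = 0.11).

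XR-seq compares repair of both strands within a library, per GG dinucleotide, the main site of cisplatin adducts. Over the 8 libraries 42 members had at least 20 reads and were tested, of which 14 had more reads on the TS and 0 more on the NTS, beside 61.7% and 9.53% of all genes tested. The share of members called was below that of all genes, but the median ratios were close. The median log2 TS to NTS ratio was 2.47 over the 42 members, with 36 of 42 above 0, and 2.36 over all genes. Some tested members had few reads, such as Hist1h4j with 14 TS and 18 NTS reads. The part of read depth in the share called was not tested. At an unadjusted p under 0.05 there were 17 members. When either liver library was left out, 6 members were called.

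The 4 members with the most TS reads were Hist1h2be, Hist1h1c, Hist1h2bc and Hist2h2be. Hist1h2be had 16.5 and 9.81 TS RPM (reads scaled to 1000000 reads on genes) for kidney, 17.2 and 19.1 for liver, 25.0 and 24.2 for lung and 22.8 and 22.4 for spleen, with 5831 TS and 651 NTS reads in all. Its log2 ratio was 3.39 ± 0.48 (SE, adjusted p = 0.000104, edgeR), and the TS was above the NTS in 8 of 8 libraries. Reads of the overlapped Hist1h1e could be among them. This gene contributes most through its length of 37455 bp, since per 1000 GG it stood at the 53.9 percentile of all genes.

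Hist1h2bc had 10.9 and 9.78 TS RPM for kidney, 9.46 and 8.72 for liver, 4.75 and 6.52 for lung and 5.63 and 5.83 for spleen, against at most 2.40 on the NTS, a log2 ratio of 4.31 ± 0.74 (adjusted p = 0.000413, edgeR). Hist2h2be had 3.42 and 5.80 for kidney, 8.29 and 7.84 for liver, 4.02 and 4.20 for lung and 4.22 and 6.38 for spleen, a log2 ratio of 3.52 ± 0.74 (adjusted p = 0.00156). For both genes the TS was above the NTS in 8 of 8 libraries. Hist1h1c had 15.6 and 14.6 TS RPM for kidney, 8.40 and 8.86 for liver, 8.25 and 8.82 for lung and 2.25 and 9.35 for spleen, a log2 ratio of 1.59 ± 0.36 (adjusted p = 0.00249), with the TS above the NTS in 7 of 8 libraries. The exception was spleen 1, with 24 TS and 36 NTS reads.

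Hist1h1a (chr13:23763666-23764406, plus strand), a linker histone H1 gene of 741 bp whose annotation ends at the hairpin, had the lowest adjusted p after Hist1h2be and was picked out after the values were seen. It had 62 and 121 TS reads for kidney, 296 and 195 for liver, 127 and 122 for lung and 18 and 200 for spleen, against 0 to 17 NTS reads in the same libraries. The TS was above the NTS in 8 of 8 libraries, with a log2 ratio of 6.18 ± 0.96 (adjusted p = 0.000338, edgeR). By RNA-seq it was almost silent, with 81 reads in all 16 libraries and a control mean of 0.0743 RPKM, the 29.1 percentile of all genes. Its XR-seq TS density was 74.5 RPM per 1000 GG, the 98.4 percentile. Hist1h1c, at 56.5 RPKM and the 96.3 percentile by RNA-seq, had nearly the same density of 73.2 and the 98.2 percentile. At near-equal repair density, these H1 genes of 1 cluster thus lay far apart in their poly-A selected RNA level.

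**Figure D4:**
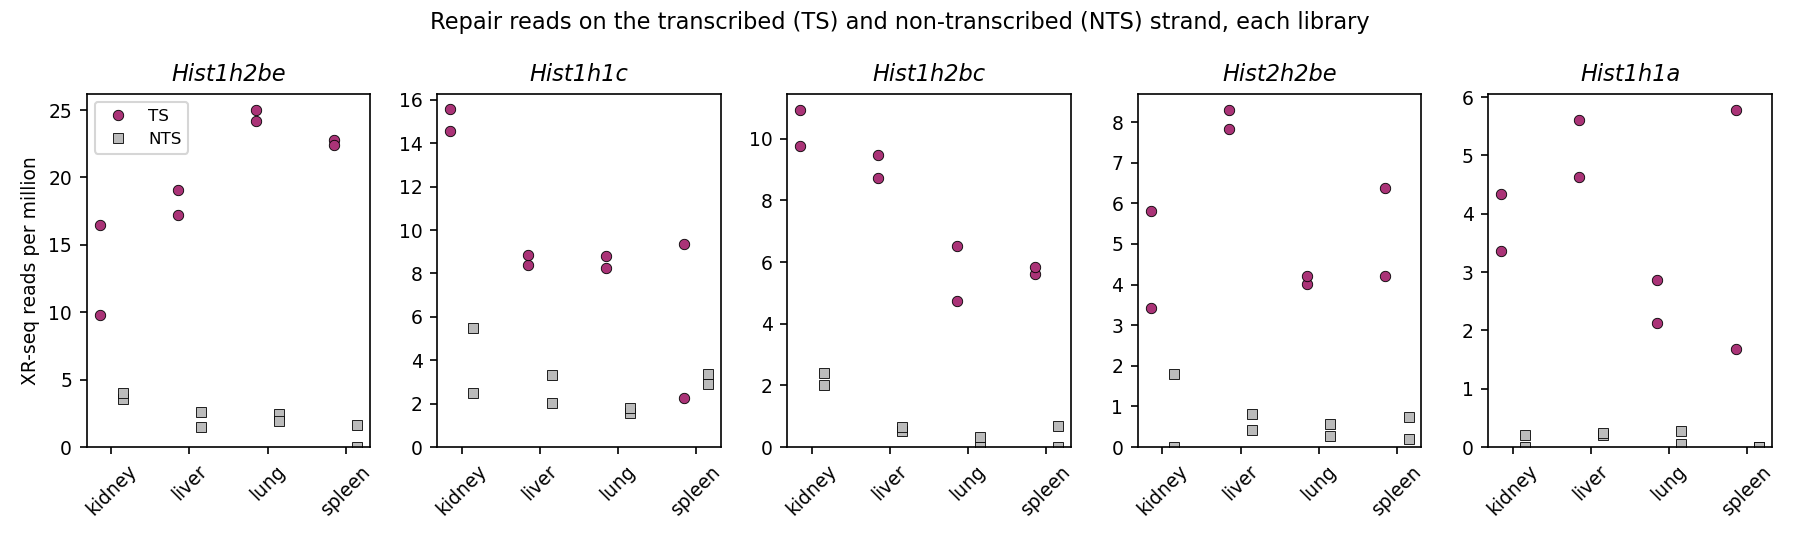
XR-seq reads per 1000000 reads on genes (RPM) on the TS (circles) and NTS (squares) of 5 histone cluster genes, 1 point per library, by organ, with a separate linear axis for each gene. Hist1h2be has 25.0 and 24.2 TS RPM in lung and 16.5 and 9.81 in kidney, and Hist1h1c in spleen 1 is the 1 point with fewer TS than NTS reads.

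Among the other called members, Hist4h4 had a control level of 0.0709 RPKM and a TS density of 26.8, and Hist2h4 had 0.191 RPKM and a density of 29.7, beside medians over all genes of 1.38 RPKM and 7.27 TS RPM per 1000 GG. Hist1h4i and Hist1h4h were not called for either strand (adjusted p = 0.49 and 0.88, edgeR). Hist1h4i, with 5.20 RPKM, had a density of 12.1, and Hist1h4h, with 3.75 RPKM, a density of 5.53 and a TS above the NTS in 3 of 8 libraries. Hist1h2bb, whose promoter is shown above, had 197 TS and 5 NTS reads in all, a log2 ratio of 4.95 ± 1.15 (adjusted p = 0.00386, edgeR). Values at low reads were lumpy. In kidney 1, lung 1 and spleen 1 between 69.3% and 78.0% of other genes up to 3000 bp had 0 reads, against 52.9% to 58.5% in the other 5 libraries. With these 3 libraries left out, a choice made after seeing the data, 23 members had more TS than NTS reads.

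**Figure D5:**
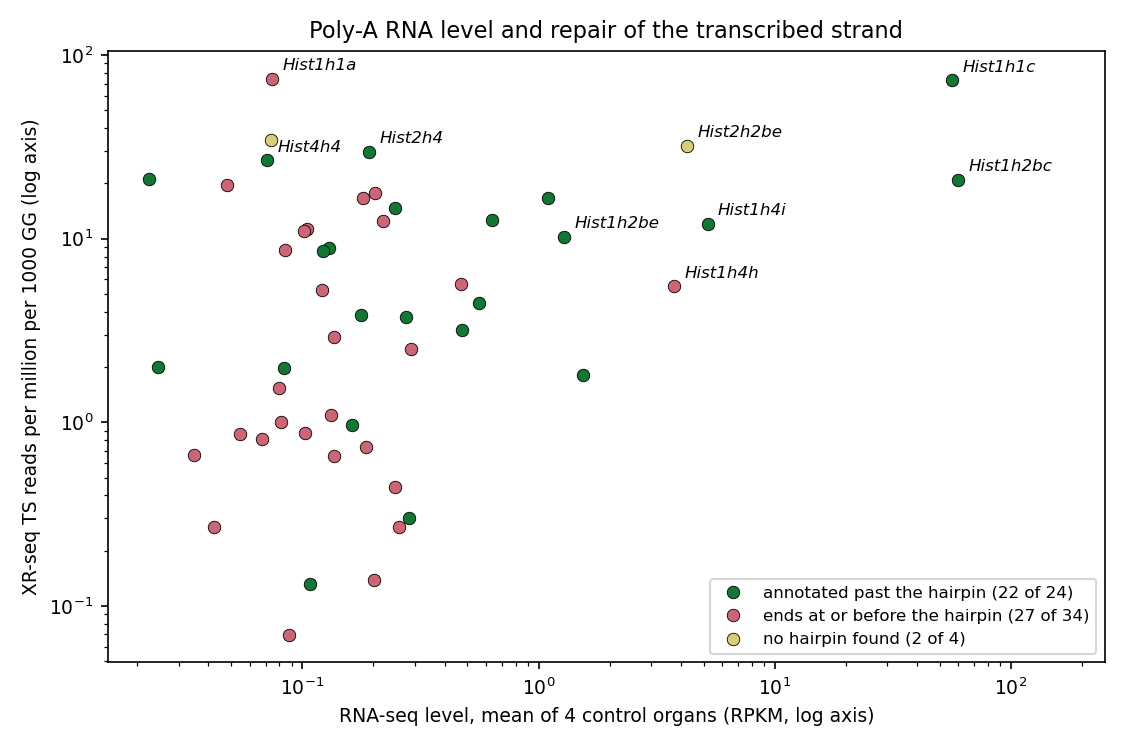
RNA-seq control level in RPKM against XR-seq TS RPM per 1000 GG (both log axes) of the 51 histone cluster genes with TS reads, coloured by where the annotated gene ends relative to the hairpin; the 11 genes with 0 TS reads are not drawn. Hist1h1a, at 0.0743 RPKM, lies at the same height (74.5) as Hist1h1c (73.2) at 56.5 RPKM.

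Between organs, 34 members had at least 20 XR-seq TS reads. In kidney 0 were called higher and 1 lower than the mean of the other organs, beside 14.9% and 16.4% of all genes, and in liver 1 higher and 1 lower, beside 27.0% and 21.3%. In lung edgeR called 0 either way, beside 14.6% and 15.2%, and in spleen 0 either way, beside 13.4% and 13.3%. At an unadjusted p under 0.05 there were 3, 5, 2 and 1 members in kidney, liver, lung and spleen, and DESeq2 was not run on these counts. Hist1h2be was lower in kidney (log2 -0.91 ± 0.23, adjusted p = 0.00783), where its control RNA-seq level was the highest of the 4 organs (2.54 RPKM). Hist2h2be was higher in liver (1.10 ± 0.34, adjusted p = 0.0167), where its mean control RNA-seq level was the lowest (1.86 RPKM, overlapping lung on the TMM scale). This call was lost without TMM and when either liver library was left out. Hist3h2ba, an H2B gene, was lower in liver (-3.24 ± 1.26, adjusted p = 0.0488), and also lower there by RNA-seq (-2.61, adjusted p = 0.0197). The Hist3h2ba call was kept in 2 of 4 alternatives and in 2 of 8 fits that left out a library.

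Summed over the 62 members per GG, the XR-seq TS to NTS ratio was 2.11 and 2.99 for kidney, 5.25 and 4.02 for liver, 6.77 and 5.60 for lung and 5.35 and 6.10 for spleen. Both kidney libraries lay below the others. The mean log2 ratio was 1.33 ± 0.35 (SD, n = 2) for kidney, 2.20 ± 0.27 for liver, 2.62 ± 0.19 for lung and 2.51 ± 0.13 for spleen. The same ratio over all genes was 5.79 for kidney, 5.56 for liver, 8.97 for lung and 7.80 for spleen. The sum over the 62 members was lower in each organ, a description without a test. The sums rested on 611 to 3923 TS reads per library. The 4 members with the most TS reads had 3.92 for kidney, 7.45 for liver, 9.53 for lung and 8.16 for spleen. The other 58 had 1.62, 3.01, 3.59 and 3.99. Outside kidney the lower ratio was thus that of the other 58 members and not of these 4. The 4 were picked by TS reads, which also enter the ratio. Restricted to the 11 members with mostly unique sequence the ratio was 2.87 for kidney, 6.11 for liver, 7.39 for lung and 7.51 for spleen, and kidney remained lowest. In this set the liver ratio lay above that over all genes, while those of kidney, lung and spleen lay below. The liver libraries of the set (5.26 and 7.09) overlapped those over all genes (5.25 and 5.89). For kidney, liver, lung and spleen the H2B genes had ratios of 4.04, 9.62, 11.4 and 18.3 and the H1 genes 2.47, 3.97, 4.94 and 2.64. The H4 genes had 2.1, 4.4, 3.2 and 6.7. The H2A genes had 1.14 for liver, 2.12 for lung and 1.66 for spleen, and the H3 genes 0.781 for liver and 4.60 for spleen. No ratio was formed for an organ where a library had 0 reads on 1 strand. The spleen libraries differed widely, with 29.7 and 11.3 for H2B and 1.36 and 5.13 for H1.

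Damage-seq had few reads on these short genes. Of the 62 members 9 had 0 reads over the 8 libraries and 17 had 20 or more and were tested. By edgeR 0 had more reads per GG on either strand, beside 2.59% of all genes with more on the TS and 38.2% with more on the NTS, 2 members were below an unadjusted p of 0.05, and DESeq2 was not run. Both were H2B genes with fewer reads on the TS: Hist2h2be with 71 TS and 111 NTS reads (log2 -0.77 ± 0.33, adjusted p = 0.0525) and Hist1h2bc with 111 TS and 166 NTS reads (-0.56 ± 0.26, adjusted p = 0.0763). The median log2 ratio over the 17 members was -0.21, beside -0.24 over all genes. Summed over all members, the TS to NTS ratio per GG was 0.947 and 0.753 for kidney, 0.743 and 0.616 for liver, 0.788 and 1.01 for lung and 0.722 and 0.903 for spleen, from 55 to 306 TS reads per library. The mean log2 ratio was -0.24 ± 0.23 (SD, n = 2) for kidney, -0.56 ± 0.19 for liver, -0.16 ± 0.26 for lung and -0.31 ± 0.23 for spleen. The organs overlapped, and over all genes the ratio was 0.871, 0.799, 0.849 and 0.881. Hist1h2be held 617 TS and 661 NTS reads, the most of any member, and reads of the overlapped Hist1h1e could be among them. Without Hist1h2be the ratio was 0.746 for kidney, 0.645 for liver, 0.963 for lung and 0.776 for spleen. Without the 4 members with the most TS reads it was 0.835, 0.622, 1.09 and 0.783.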

How the data were processed

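Per the labels and the study's methods, Damage-seq and XR-seq reads were trimmed (cutadapt), mapped to mm10 (BWA) and freed of duplicates (Picard). Only reads carrying GG where the adduct should lie were retained, and the authors deposited their raw counts per gene and strand. RNA-seq reads (NEBNext Ultra, poly-A selected, paired) were aligned with STAR, filtered by mapping quality and counted with featureCounts, and the authors deposited raw counts per gene. Versions are not given in the sources used here. The 1 unnamed line of the Damage-seq and XR-seq files, which holds no value, was dropped. Replicate numbers were not treated as pairs.

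Members and gene lists were chosen with earlier results of these data known. Positions came from GENCODE M21 on GRCm38, and GG dinucleotides were counted on each strand between gene start and end. RNA-seq was fitted with edgeR 4.0.16 in R 4.3.3 (TMM, filterByExpr, quasi-likelihood) over 14 samples with 1 mean per organ and arm and 6 residual degrees of freedom. Genes were called against a log2 fold change of 0.4 at an adjusted p-value (Benjamini-Hochberg over all 19100 genes) under 0.05. An RNA-seq pair with a dispersion index of 3 or below was summed. With the lung and spleen controls at 1 sample each, their spread was taken from the other groups. The Damage-seq pairs of liver, lung and spleen also had indices below 3 (1.64, 2.62 and 1.46) but were kept as separate libraries. Spread between Damage-seq libraries was thus close to sampling noise in these organs. TS and NTS counts were fitted with the library as a block and an offset for the GG count (genes with at least 20 reads, 21720 in XR-seq and 22946 in Damage-seq), and TS counts between organs over 20689 genes. RPKM used the exon length. The fits were tested on simulated data. Figures and sums used Python 3.11.15 with pandas 2.3.3 and matplotlib 3.10.9.

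Named with values were members past a test, the 5 with the highest control RPKM, the 4 with the most XR-seq TS reads, the 3 with the lowest interaction p, and genes of the fixed lists; others are said to be picked after their values were seen. Alternatives were DESeq2 1.42.0, other size factors, no filter, each library as a replicate, a replicate block, each organ fitted alone, a test against 0, no GG offset, each library left out, and sums without near-identical, overlapping or dominant members. P-values measure the spread between these libraries, 2 per group except for the pooled lung and spleen controls, and whether that spread is between animals was not tested. Depth sets counting error only, and PCR reads carry no molecular identifiers.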

Additional observations from a re-analysis of the deposited data

How the results depend on the processing

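No member passed the RNA-seq response test under any alternative except in kidney with a replicate block, where 2 rose (Hist2h4 and Hist4h4), and in liver without cisplatin replicate 1, where 1 rose (range 0 to 1 over the libraries left out). Deviations of same-numbered libraries correlated at 0.24 (kidney), 0.20 (liver), 0.22 (spleen) and 0.05 (lung). Pairing was accepted only above 0.1 in every organ, so the block is given as an alternative. Levels in controls depended more on the settings. With DESeq2, 4 members were higher and 0 lower in kidney and 1 was higher in spleen. With each library as a replicate, 2 were lower in kidney, 2 higher in liver, 1 higher and 2 lower in lung, and 11 higher and 5 lower in spleen. With the replicate block, 2 were higher and 2 lower in lung, and 12 higher and 5 lower in spleen. In a test against 0, 2 were lower in kidney and 1 in lung. Leaving out 1 library gave 4 to 8 higher and 0 to 2 lower in kidney (4 without kidney control replicate 2), 1 to 3 lower in liver (1 without liver control replicate 2) and 0 to 1 lower in lung.

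For Damage-seq, 1 member had more NTS reads without the GG offset and 0 to 2 with 1 library left out. For the XR-seq strand, 6 to 18 had more TS reads with 1 library left out (6 without either liver library) and 23 in the 5 libraries chosen after seeing the data. For XR-seq TS between organs, members higher in kidney numbered 1 without TMM and 1 without the filter, and 2 were then lower without the filter. Those higher in liver numbered 0 without TMM, 2 without the filter and 6 in the 5 libraries, and those lower in liver 0 with RLE size factors and 0 without the filter. In lung 1 was lower without the filter and 1 in the 5 libraries, and in spleen 2 were higher and 1 lower in the 5 libraries. Leaving out 1 library gave 0 to 2 higher and 1 to 4 lower in kidney (4 without kidney 2), 0 to 6 higher and 0 to 1 lower in liver, 0 to 3 higher and 0 to 3 lower in lung, and 0 to 3 higher and 0 to 1 lower in spleen.

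The summed RNA-seq log2 ratio was 0.36 in kidney and -0.04 in spleen without Hist1h1c, and 0.42 in spleen for mostly unique members. The summed XR-seq log2 ratio for mostly unique members was 2.61 in liver, 2.89 in lung and 2.91 in spleen. Without overlapping members it was 2.41 in lung and 2.11 in spleen, and without Hist1h2be 2.27 and 1.97. Signs of small responses turned: Hist2h2be in kidney from 0.02 to -0.047 with DESeq2 and -0.046 with RLE size factors, and Hist1h4i in spleen from -0.12 to 0.002 with the organ fitted alone. With 1 library left out, Hist2h2be in kidney ranged from -0.15 to 0.22, Hist1h2bc in liver from -0.13 to 0.50, Hist1h4h in liver from -0.36 to 0.97 and in lung from -0.246 to 0.027, Hist1h4i in lung from -0.21 to 0.30 and in spleen from -0.27 to 0.18, and the kidney control level of Hist1h1d from -0.11 to 2.53. The causes were not tested. Damage-seq depth, with 17 members testable, limits single genes.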
